A study of Mus musculus with 12 samples.

Results

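The CC chemokines are small secreted proteins that attract leukocytes and are named for a pair of cysteines that stand next to each other near the start of the mature protein. They act through seven-helix receptors on the target cell, and most ligands share receptors with other members of the family. The data are RNA-seq libraries of whole kidney, and 10 members, Ccl2, Ccl3, Ccl4, Ccl5, Ccl6, Ccl7, Ccl9, Ccl12, Ccl20 and Ccl28, were taken by gene symbol from the 24421 symbols of the deposited tables. Each was read from its transcript with the highest total count. The 12 libraries came from male C57BL/6 mice (C57BL/6J in the study's methods) at 6 weeks of age and fall into 4 groups of 3. WT and whole-body Tet2-/- mice at baseline had no operation. WT and Tet2-/- mice of the ischemia-reperfusion (IR) groups had the right renal pedicle clamped for 60 min, the left kidney removed, and the right kidney taken after 24 h of reperfusion. No sham libraries were analysed here, so a difference between IR and baseline also holds the operation and the loss of the other kidney. The comparisons ask how chemokine transcripts differed between the genotypes with and without injury, and how each genotype's kidneys differed after IR.

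The library totals ran from 51007366 to 107969888 counts. Levels are given as FPKM, a read count scaled to transcript length and to the library's total, which allows a comparison between genes. Tet2 itself did not mark the genotype at baseline: its FPKM was 6.25 to 9.15 in the WT libraries and 9.25 to 16.6 in those labelled Tet2-/- (log2 fold change 0.76 ± 0.24 SE; edgeR, adjusted p = 0.321). In the IR groups the Tet2 log2 fold change was −1.28 (edgeR, adjusted p = 0.0690). Which part of the gene the allele lacks is not given in the sources used here, so a whole-transcript level does not check a deletion of part of it, and every genotype below is that of the library's label. Whole kidney holds tubules, vessels and leukocytes, and defining proximal tubule markers were above 0 in all 12 libraries, with a summed FPKM of 606 to 2987. In such bulk RNA, fewer cells of a type and less RNA per cell cannot be told apart.

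Ccl2, also called MCP-1, Ccl7 and Ccl12 attract monocytes through the receptor Ccr2 and lie in 1 cluster on chromosome 11. On mm9, the build of the files, Ccl2 spans chr11:81849079-81850954, Ccl7 chr11:81859214-81861025 and Ccl12 chr11:81915347-81916901, all on the plus strand. Ccl3, Ccl4 and Ccl5 attract T cells, NK cells and monocytes, and Ccl3 and Ccl5 bind Ccr1. They share a second cluster with Ccl6 and Ccl9, rodent chemokines that bind Ccr1 and are made by macrophages and other myeloid cells. In that cluster Ccl5 lies at chr11:83339281-83344020, Ccl9 at chr11:83386419-83392138, Ccl6 at chr11:83401388-83406589 and Ccl3 at chr11:83461345-83462880, all on the minus strand, and Ccl4 at chr11:83476086-83478185 on the plus strand. Ccl20, the ligand of Ccr6, lies elsewhere, at chr1:83113341-83115742 on the plus strand. Ccl28, a mucosal chemokine that epithelia secrete and that binds Ccr10 and Ccr3, is placed by the files on the minus strand of the unplaced sequence 13_random, at 362539 to 393978.

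The family's shared feature is visible in the coding sequences of the GENCODE M1 transcripts. To show how alike the members counted here are in their most conserved stretch, the 36 bases around the cysteine pair are printed for 8 members, with both cysteine codons in capitals.
Ccl2: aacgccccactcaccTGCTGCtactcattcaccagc
Ccl7: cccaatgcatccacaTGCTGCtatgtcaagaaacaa
Ccl12: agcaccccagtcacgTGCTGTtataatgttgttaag
Ccl4: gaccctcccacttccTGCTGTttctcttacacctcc
Ccl5: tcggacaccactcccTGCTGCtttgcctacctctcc
Ccl6: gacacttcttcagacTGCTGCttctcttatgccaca
Ccl9: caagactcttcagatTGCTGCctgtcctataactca
Ccl20: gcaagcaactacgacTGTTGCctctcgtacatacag

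Even here the genes differ at many bases. Ccl6 and Ccl9 share 24 of the 36 bases, Ccl4 and Ccl5 share 22, Ccl2 and Ccl12 share 20, and Ccl9 and Ccl12 share 8. Over the whole transcripts, Ccl2, Ccl3, Ccl4, Ccl5, Ccl6, Ccl7, Ccl12 and Ccl20 had no stretch of 50 bases in common with another gene's coding transcript. Ccl9 had 56 of its 2957 such stretches in common with transcripts of 145 other genes, or 1.89%.

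Sequences just before the start are shown for 4 of the members with a promoter entry, because Ccl6 and Ccl9 are neighbours whose transcripts rose after IR in the same libraries, and Ccl20 and Ccl28 gave the highest and the lowest log2 fold change from baseline to IR in kidneys labelled Tet2-/- in edgeR. Such RefSeq entries, on GRCm38.p6, matched 6 of the 10 members, Ccl3, Ccl6, Ccl9, Ccl12, Ccl20 and Ccl28. The 250 bases before the start are given 5′ to 3′ on the gene's own strand. Capitals mark any match, on either strand, to a kappa-B type motif (GGG, NNNTN and CC in this order without a gap), an AP-1 type motif (TGANTCA) or a TATA box (TATAAA).
Ccl6, chr11:83593088-83593337, minus strand: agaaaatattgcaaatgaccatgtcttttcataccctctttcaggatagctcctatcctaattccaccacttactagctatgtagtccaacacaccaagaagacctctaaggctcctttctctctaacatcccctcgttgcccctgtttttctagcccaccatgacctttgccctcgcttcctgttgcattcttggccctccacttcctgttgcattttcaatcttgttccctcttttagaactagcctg
Ccl9, chr11:83578637-83578886, minus strand: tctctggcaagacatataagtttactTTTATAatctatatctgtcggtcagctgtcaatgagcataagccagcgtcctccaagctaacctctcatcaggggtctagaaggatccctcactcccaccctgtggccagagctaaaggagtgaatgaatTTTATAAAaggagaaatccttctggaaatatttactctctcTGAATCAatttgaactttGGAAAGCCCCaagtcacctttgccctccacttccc
Ccl20, chr1:83116516-83116765, plus strand: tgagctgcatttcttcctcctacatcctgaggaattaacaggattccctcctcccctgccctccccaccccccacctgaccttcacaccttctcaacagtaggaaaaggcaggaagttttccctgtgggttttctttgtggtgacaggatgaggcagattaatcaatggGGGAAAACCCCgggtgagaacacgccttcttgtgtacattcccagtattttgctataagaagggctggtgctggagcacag
Ccl28, chr13:119623569-119623818, plus strand: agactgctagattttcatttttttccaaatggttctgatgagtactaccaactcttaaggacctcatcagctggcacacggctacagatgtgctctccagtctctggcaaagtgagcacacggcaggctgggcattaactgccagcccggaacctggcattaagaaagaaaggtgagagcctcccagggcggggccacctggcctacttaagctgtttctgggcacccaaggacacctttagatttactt

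In Ccl20 the capitals are 2 overlapping kappa-B type matches on the minus strand, 81 to 71 bases before the start. In Ccl9 they are a kappa-B type match 35 to 26 bases before the start, an AP-1 type match 53 to 47 bases before it and 3 matches to the TATA box letters, of which 2 overlap. Ccl12 held a TATA box match 31 to 26 bases before its start. None of the letters were found in the windows of Ccl3, Ccl6 and Ccl28. Of 32851 RefSeq promoters of the same length, 14.9% held the kappa-B type letters, 6.75% the AP-1 type letters and 12.4% the TATA box letters.

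At baseline the family was led by Ccl28 in kidneys of both genotypes. In WT kidneys Ccl28 stood at 17.7 ± 3.32 FPKM (SD, n = 3), followed by Ccl5 at 2.66 ± 0.274 and Ccl6 at 1.05 ± 0.286, and these 3 did not overlap. The other 7 members had means of 0.0337 FPKM for Ccl20 to 0.366 FPKM for Ccl2, and each overlapped its neighbour in the order. In the baseline libraries labelled Tet2-/- the order again began with Ccl28 at 6.14 ± 2.13 FPKM and Ccl5 at 3.12 ± 1.27, but their ranges overlapped. Ccl28 made up 74.6 to 82.5% of the summed FPKM of the 10 members in WT baseline libraries, and 49.3 to 57.5% in those labelled Tet2-/-.

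After IR the order stayed the same at its head in WT kidneys and changed in those labelled Tet2-/-. Ccl28 held 73.3 to 92.4% of the summed FPKM in WT IR libraries and 6.16 to 10.2% in Tet2-/- IR libraries. Ccl6 was the highest member in all 3 of the latter, at 9.67 ± 9.01 FPKM, ahead of Ccl9 at 3.87 ± 3.74, Ccl2 at 3.62 ± 3.26, Ccl20 at 2.91 ± 2.15, Ccl5 at 2.87 ± 1.35 and Ccl28 at 2.06 ± 1.04. No neighbours in that order were apart, since the values of the 3 libraries spread widely. The members other than Ccl28 summed to 14.2, 49.4 and 11.7 FPKM in Tet2-/- IR replicates 1, 2 and 3, and to 2.47 to 10.2 FPKM in the other 9 libraries.

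**Figure D1:**
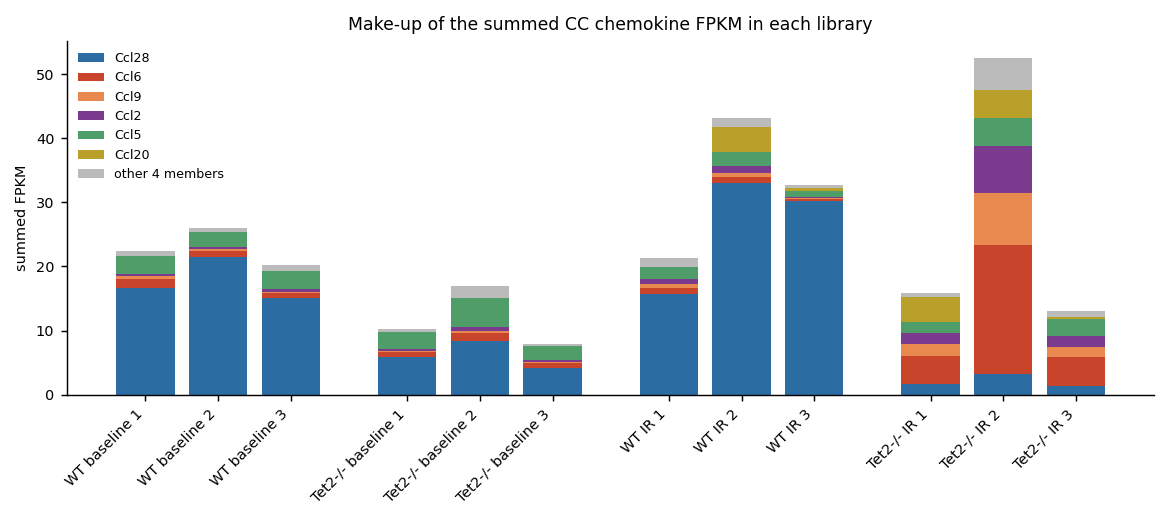
Summed FPKM of the 10 CC chemokines in each of the 12 libraries, stacked by member on a linear axis. Ccl28 fills 73.3% or more of every WT bar and at most 10.2% of the Tet2-/- IR bars, where Ccl6 is the highest member.

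Ccl28 was the member with the most stable difference. Its FPKM was 16.7, 21.4 and 15.0 in WT baseline replicates 1 to 3, and 5.89, 8.39 and 4.14 in those labelled Tet2-/-. After IR it was 15.6, 33.0 and 30.2 in WT and 1.62, 3.24 and 1.31 in the libraries labelled Tet2-/-. Thus the Tet2-/- IR libraries were the lowest, the Tet2-/- baseline libraries came next, and both WT groups lay above them without overlap. After IR Ccl28 fell by 3.81 on the log2 scale against WT (SE 0.42; edgeR, adjusted p = 0.0104), with a ratio of the mean FPKM of 0.0782. It passed in all 16 alternative settings, with log2 fold changes from −4.23 to −3.14.

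At baseline the Ccl28 log2 fold change between genotypes was −1.44 ± 0.26 (SE), with an unadjusted p of 0.000632 and no overlap of the groups, but edgeR's adjusted p was 0.206. DESeq2 gave an adjusted p of 4.89e-05 for the same libraries, and leaving out each library in turn moved the log2 fold change only between −1.73 and −1.22. Within genotypes, IR went with opposite signs. In kidneys labelled Tet2-/- Ccl28 fell by 1.86 from baseline to IR (SE 0.36; edgeR, adjusted p = 0.00516). In WT kidneys the log2 fold change was 0.52 ± 0.30, which did not pass (edgeR, adjusted p = 0.345). The interaction, the difference between those log2 fold changes, was −2.35 ± 0.50 (edgeR, adjusted p = 0.0187) and passed in all 21 alternatives.

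Proximal tubule transcripts were lower in the same Tet2-/- IR libraries. The 8 proximal tubule markers summed to 606 to 839 FPKM there, against 1697 to 2251 in WT IR libraries. Of the 8, 5 were called lower between the genotypes after IR, where 3.85% of all genes were. At baseline, where Ccl28 also did not overlap between genotypes, their sums did overlap, at 2524 to 2679 FPKM in WT and 2285 to 2987 in Tet2-/- libraries, and 0 of 8 were called by edgeR. In WT kidneys the sums were lower after IR than at baseline without overlap, with 0 of 8 called. The Ccl28 log2 fold change there was 0.52. Of 8 thick limb, distal tubule and collecting duct markers 0 were called between genotypes after IR. From baseline to IR in kidneys labelled Tet2-/- 3 of these 8 were called lower. The part of the tubule markers in the Ccl28 difference after IR was not tested.

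**Figure D2:**
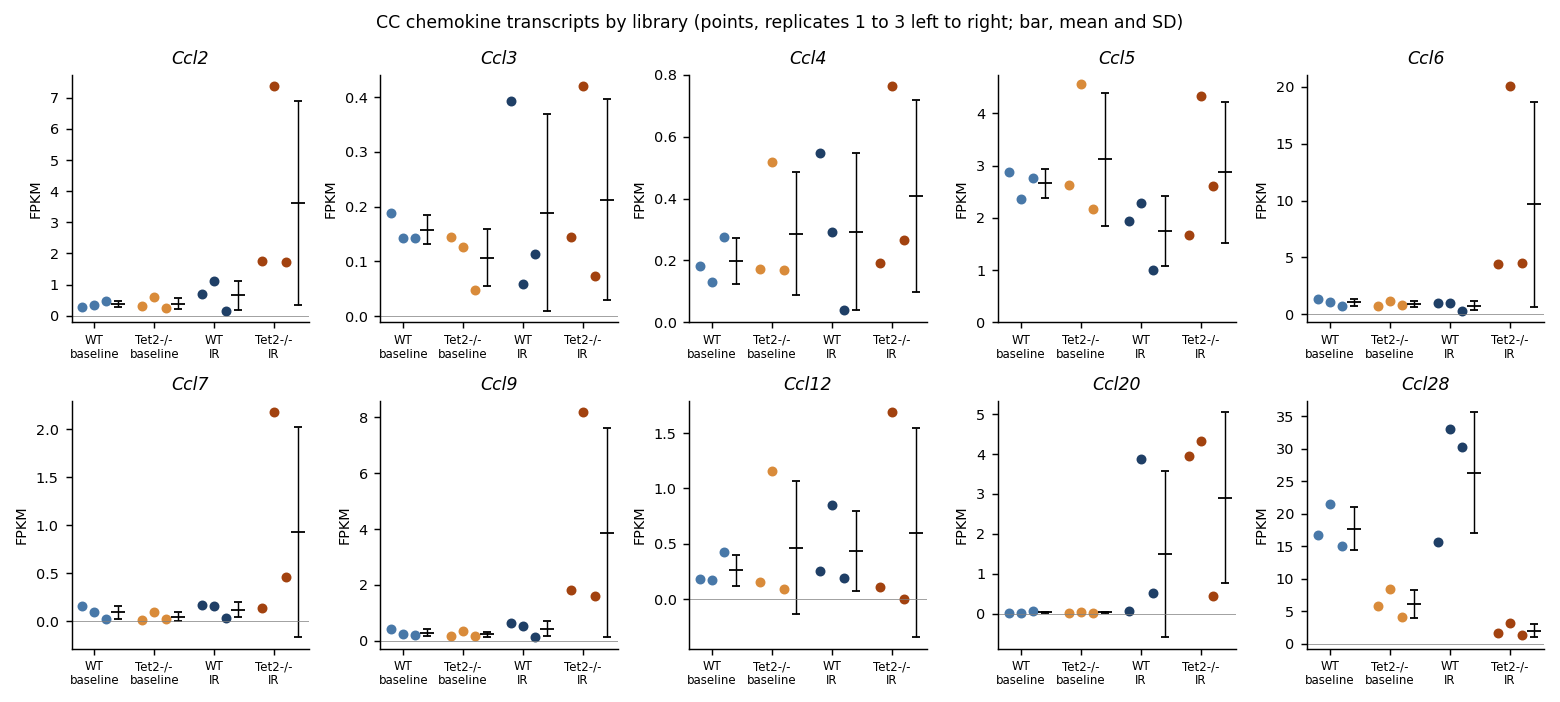
FPKM of each member in the 12 libraries, 1 panel per gene with its own linear axis (points, replicates 1 to 3 from left to right; black bar, mean and SD of the 3 libraries). Ccl28 is lowest in the Tet2-/- IR libraries, while Ccl2, Ccl6 and Ccl9 are highest there and Tet2-/- IR replicate 2 stands above its group.

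Ccl6 and Ccl9 were higher in IR kidneys labelled Tet2-/- than in all others. Ccl6 stood at 4.44, 20.1 and 4.49 FPKM in Tet2-/- IR replicates 1 to 3 and at 0.976, 0.992 and 0.298 in WT IR replicates 1 to 3. At baseline it ran from 0.765 to 1.34 in WT libraries and from 0.719 to 1.18 in those labelled Tet2-/-. So the 3 Tet2-/- IR libraries lay above the other 9, and 1 of them was far above its own group. Between genotypes after IR, Ccl6 rose by 3.56 on the log2 scale (SE 0.72; edgeR, adjusted p = 0.0292), with a ratio of the mean FPKM of 12.8. Without Tet2-/- IR replicate 2 the log2 fold change was 2.55 (edgeR, adjusted p = 0.0472). The call was lost without WT IR replicate 1, 2 or 3 and without Tet2-/- IR replicate 1. The log2 fold changes in these fits were 3.75, 3.77, 3.19 and 3.89 (edgeR, adjusted p = 0.0872, 0.0610, 0.0743 and 0.0517).

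Ccl9 also had its highest values in the 3 Tet2-/- IR libraries, at a lower level. Its FPKM was 1.82, 8.19 and 1.62 in Tet2-/- IR replicates 1 to 3 and 0.642, 0.532 and 0.127 in WT IR replicates 1 to 3. At baseline it was 0.210 to 0.437 in WT and 0.168 to 0.340 in Tet2-/- libraries. The IR groups did not overlap, but the log2 fold change between genotypes of 3.05 ± 0.78 (SE) did not pass (edgeR, adjusted p = 0.0542). Without Tet2-/- IR replicate 2 it was 1.98 (edgeR, adjusted p = 0.106). It passed under DESeq2, without the filter on low counts, with all 12 libraries in the fit and with a replicate block.

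From baseline to IR, both genes rose in kidneys labelled Tet2-/-, Ccl6 by 3.11 (SE 0.61; edgeR, adjusted p = 0.00552) and Ccl9 by 3.75 (SE 0.68; edgeR, adjusted p = 0.00397). In WT kidneys the log2 fold changes were −0.56 ± 0.45 for Ccl6 and 0.47 ± 0.58 for Ccl9, and neither passed (edgeR, adjusted p = 0.50 and 0.667). Their interactions were 3.70 ± 0.80 (edgeR, adjusted p = 0.0194) and 3.31 ± 0.94 (edgeR, adjusted p = 0.0499). That of Ccl6 lost its call only without Tet2-/- baseline replicate 3 (edgeR, adjusted p = 0.0548), and that of Ccl9 lost it in 14 of 21 alternatives. At baseline the genotypes differed by log2 fold changes of −0.13 for Ccl6 and −0.25 for Ccl9, with adjusted p-values of 0.867 and 0.804 in edgeR.

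Of the monocyte-attracting group, Ccl2 and Ccl7 rose after IR in kidneys labelled Tet2-/-, where the filter on low counts removed Ccl12. Ccl2 stood at 1.76, 7.38 and 1.71 FPKM in Tet2-/- IR replicates 1 to 3 and at 0.701, 1.10 and 0.151 in WT IR replicates 1 to 3. Its baseline range was 0.292 to 0.473 in WT and 0.252 to 0.592 in Tet2-/- libraries. The IR groups therefore did not overlap, although the log2 fold change between them, 2.37 ± 0.79 (SE), did not pass (edgeR, adjusted p = 0.103). DESeq2, the fit to all 12 libraries and the replicate block each called it, with adjusted p-values of 0.0134, 0.0348 and 0.0433. Without Tet2-/- IR replicate 2 it was 1.41 (edgeR, adjusted p = 0.255). From baseline to IR, Ccl2 rose by 2.89 in kidneys labelled Tet2-/- (SE 0.66; edgeR, adjusted p = 0.0104), and its log2 fold change in WT kidneys was 0.74 ± 0.63 (edgeR, adjusted p = 0.521). The interaction of 2.18 did not pass (edgeR, adjusted p = 0.168), and was 1.17 without Tet2-/- IR replicate 2, so these effects of IR were not shown to differ.

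Ccl7 rested on few counts. It had 12.5, 222.5 and 35 counts in Tet2-/- IR replicates 1 to 3, against 9.5, 11 and 2 in WT IR replicates 1 to 3, so the groups overlapped at replicate 1. Baseline libraries held 1 to 12 counts. From baseline to IR it rose by 3.77 in kidneys labelled Tet2-/- (SE 1.09; edgeR, adjusted p = 0.0261), and without Tet2-/- IR replicate 2 the value was 2.27 (edgeR, adjusted p = 0.0701). The call was also lost without Tet2-/- baseline replicate 1 or 3 (edgeR, adjusted p = 0.0855 and 0.0845) and under limma with a pseudocount of 1 (0.74; adjusted p = 0.127). The log2 fold change between genotypes after IR was 2.76 ± 1.04 (edgeR, adjusted p = 0.136). Its interaction of 3.50 did not pass (edgeR, adjusted p = 0.146) and passed with a replicate block (3.55; edgeR, adjusted p = 0.0131). Without Tet2-/- IR replicate 2 the genotype difference after IR was 1.26 and the interaction 1.95, and neither passed (edgeR, adjusted p = 0.387 and 0.357).

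Ccl12, of the same cluster, was high in single libraries of 3 groups. Its highest values were 1.69 FPKM in Tet2-/- IR replicate 2, 1.16 in Tet2-/- baseline replicate 2 and 0.847 in WT IR replicate 2, while Tet2-/- IR replicate 3 was listed at 0. The log2 fold change between genotypes after IR was 0.32 ± 1.36 (edgeR, adjusted p = 0.901), and without Tet2-/- IR replicate 2 it was −3.01. Its log2 fold change from baseline to IR in kidneys labelled Tet2-/-, without the filter, was 0.0033 ± 1.39 (edgeR, adjusted p = 0.999).

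Ccl20, which attracts lymphocytes and dendritic cells through Ccr6, had few reads at baseline and rose after IR in kidneys labelled Tet2-/-. The 6 baseline libraries held 1.0 to 5.0 counts of it. After IR it had 4.0, 267.5 and 32.0 counts in WT replicates 1 to 3 and 348.5, 444.5 and 33.0 in Tet2-/- replicates 1 to 3, or 0.0720, 3.88 and 0.512 FPKM against 3.95, 4.34 and 0.439 FPKM. High and low libraries thus occurred in both IR groups, and these overlapped. Ccl20 rose by 6.22 from baseline to IR in kidneys labelled Tet2-/- (SE 0.97; edgeR, adjusted p = 0.00208) and kept its call in all 16 alternatives. The size of that value rests on the low baseline: in limma on log2(FPKM + 1) it was 1.71, below the 2.18 of Ccl6 and 1.73 of Ccl9. In WT kidneys it was removed by the filter on low counts, and WT IR replicate 2 held most of its reads. Its WT log2 fold change was 5.22 ± 1.37 without that filter (edgeR, adjusted p = 0.0950) and 5.22 ± 1.34 with all 12 libraries in the fit (edgeR, adjusted p = 0.0422). It also passed without WT IR replicate 1 (5.78; edgeR, adjusted p = 0.0312). Between genotypes after IR the log2 fold change was 0.88 ± 1.24 and the interaction 1.03 ± 1.96, neither past the threshold (edgeR, adjusted p = 0.677 and 0.778). Without WT IR replicate 2 they were 3.06 and 3.26 (edgeR, adjusted p = 0.182 and 0.195), and with any other IR library left out they ran from 0.30 to 1.36 and from 0.47 to 1.52.

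Ccl4 and Ccl5 passed in none of the 5 comparisons and Ccl3 in none of the 3 in which it was tested. The filter on low counts removed Ccl3 between genotypes after IR and in WT kidneys. Ccl5 was the second member at baseline and ran from 2.16 to 4.57 FPKM in the 6 baseline libraries, from 1.004 to 2.29 in WT IR and from 1.67 to 4.34 in Tet2-/- IR libraries. The WT IR libraries all lay below the WT baseline libraries, with a log2 fold change of −0.69 ± 0.33 that did not pass (edgeR, adjusted p = 0.272). Lymphocyte and NK markers were also lower after IR in WT libraries, where the 12 markers summed to 0.717 to 1.79 FPKM against 3.44 to 3.77 at baseline, and 0 of 11 tested were called (edgeR). Their part in the Ccl5 values was not tested. Ccl3 ranged from 0.0470 to 0.421 FPKM and Ccl4 from 0.0390 to 0.765 FPKM over the 12 libraries. The libraries held 3.5 to 42.5 counts of Ccl3 and 2.0 to 64.5 of Ccl4.

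Counted over the family, the Tet2-/- IR libraries carried the calls. Between genotypes after IR, 9 members were tested, Ccl6 was called higher and Ccl28 lower, where 6.15% of the 16186 genes tested were called, 2.30% higher and 3.85% lower. Without the filter on low counts Ccl9 was called as well, where 1.83% of 20243 genes were called higher and 3.03% lower, and the median log2 fold change was 0.75 over all 10 members and 0.07 over all genes. Ccl2, Ccl6 and Ccl9 lay above WT without overlap, as did 22.0% of all genes, and Ccl28 below, as did 14.6%. Among kidneys labelled Tet2-/-, from baseline to IR 5 of 9 tested members were called higher (Ccl2, Ccl6, Ccl7, Ccl9 and Ccl20) and 1 lower (Ccl28), against 12.7% and 11.6% of 16359 genes, or 24.3% in all. Ccl2, Ccl6, Ccl7, Ccl9 and Ccl20 lay above baseline without overlap, as did 40.5% of all genes, and Ccl28 below, as did 17.9%. Ccl7 and Ccl20, with at most 12 and 5 counts in baseline libraries, passed the filter through the Tet2-/- IR libraries in which they were high, so the count is a description of the 9 and not a share of the family. Without the filter the same 6 of 10 members were called, where 10.7% of 20326 genes were called higher and 9.57% lower, and the median log2 fold change was 1.80 over all 10 members and 0.06 over all genes. Without Tet2-/- IR replicate 2 the log2 fold changes were 1.95 for Ccl2, 2.11 for Ccl6, 2.70 for Ccl9, 5.89 for Ccl20 and −2.26 for Ccl28, and these 5 were still called.

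In the other comparisons fewer calls were made. At baseline 0 of 7 tested members were called by edgeR between genotypes, 1 had an unadjusted p under 0.05 (Ccl28) and DESeq2 called 1, where edgeR called 0.0124% of 16086 genes and none of them lower, and DESeq2 called 23 genes higher and 298 lower. Ccl28 lay below WT without overlap at baseline, as did 16.5% of all genes, and 0 members lay above, against 3.06%. From baseline to IR in WT kidneys 0 of 8 were called by edgeR, with 0 at an unadjusted p under 0.05, against 2.35% of 16015 genes, 1.46% higher and 0.887% lower. With a replicate block edgeR called 428 genes higher and 559 lower in WT kidneys in place of 234 and 142, and again 0 members. There Ccl20 lay above baseline without overlap, as did 18.9% of all genes tested, and Ccl5 below, as did 10.4%. The interaction, tested on all 12 libraries at an adjusted p under 0.05 alone, was called higher for Ccl6 and Ccl9 and lower for Ccl28 among 10 members, against 3.79% and 5.39% of 16741 genes, or 9.18% in all. The comparisons share libraries and are not independent of each other.

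**Figure D3:**
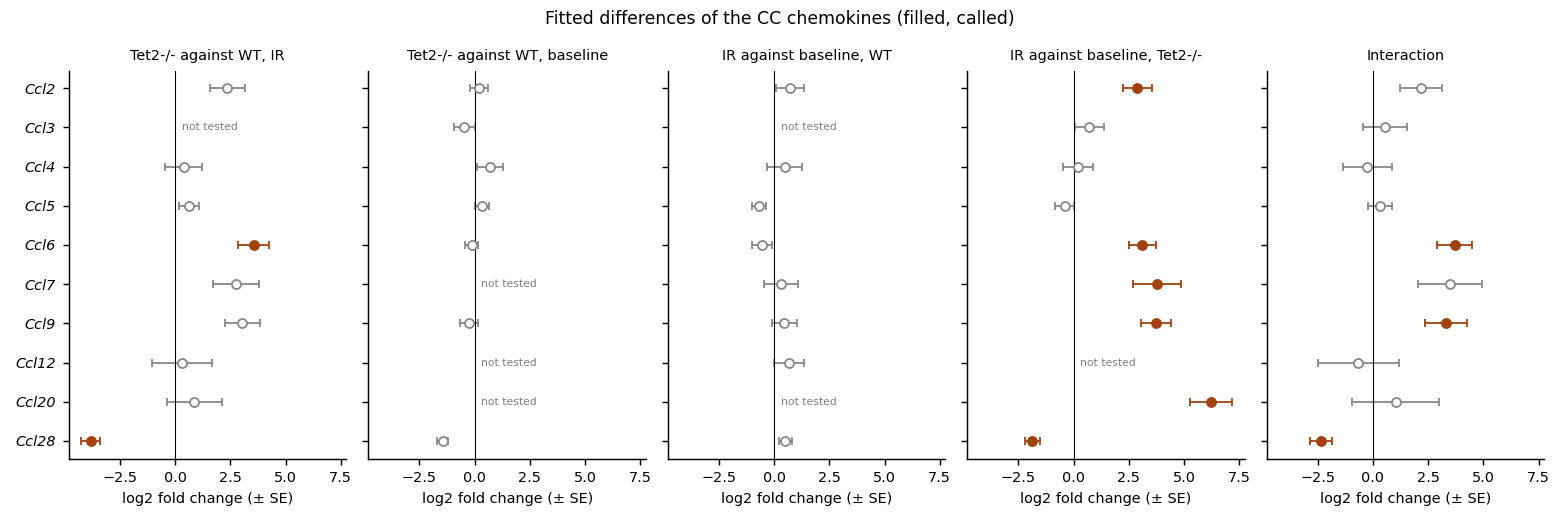
Fitted log2 fold changes of the 10 members with their SE in the 4 pairwise comparisons and the interaction (edgeR; filled points, called; open points, not called; members removed by the filter on low counts are written as not tested). The calls lie in the comparisons that hold the Tet2-/- IR libraries, with Ccl28 on the negative side and Ccl6 on the positive side in the first, the fourth and the last panel.

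Neutrophil markers, and in part macrophage markers, were higher in the Tet2-/- IR libraries, while lymphocyte, NK and dendritic cell markers were not called between genotypes. The 10 neutrophil markers summed to 75.6 to 134 FPKM in Tet2-/- IR and 4.14 to 9.52 in WT IR libraries. At baseline they summed to 0.673 to 3.17. Of 9 tested between genotypes after IR 7 were called higher, where 2.30% of all genes were. In each comparison without Tet2-/- IR libraries the filter on low counts passed only 4 of the 10. The rest of the 9 passed through the Tet2-/- IR libraries, so the count describes the markers tested and is not a share of the list. S100a8 and S100a9, which form calprotectin, made up most of the sum, and Ly6g, which defines neutrophils, was at 0.150 to 0.320 FPKM in the Tet2-/- IR libraries and above 0 in all 12. The granule gene Camp was at 0 in Tet2-/- IR replicate 3. The 13 macrophage and monocyte markers summed to 70.0 to 257 FPKM in Tet2-/- IR libraries, 37.5 to 81.6 in WT IR and 43.3 to 87.5 at baseline, none of them was at 0, and 2 of 13 were called higher between genotypes after IR. Csf1r, which defines the lineage, overlapped between the genotypes, at 4.44, 6.93 and 2.21 FPKM in Tet2-/- IR replicates 1 to 3 and 15.9, 5.57 and 4.93 in WT IR replicates 1 to 3. Cd14, Itgam and Ly6c2 lay above WT IR without overlap, as did 22.0% of all genes. The other macrophage markers, Adgre1 and C1qa among them, overlapped. Of the lymphocyte and NK markers 0 of 8 tested and of the dendritic cell markers 0 of 7 were called by edgeR between genotypes after IR. In kidneys labelled Tet2-/- from baseline to IR, 8 of 9 neutrophil markers were called higher, under the same limit of the filter. Of 13 macrophage markers 3 were called higher and 1 lower. Of 8 dendritic cell markers 1 was called higher, and of 12 lymphocyte and NK markers 2 lower. Over all genes 12.7% were called higher and 11.6% lower, near the counts of the dendritic cell and lymphocyte markers. The highest macrophage sum, 257 FPKM, was that of Tet2-/- IR replicate 2, with Lyz2 at 120 FPKM, and this library also held the highest Ccl2, Ccl3, Ccl4, Ccl6, Ccl7, Ccl9, Ccl12 and Ccl20. Adipocyte markers summed to 114, 81.4 and 602 FPKM in Tet2-/- IR replicates 1 to 3, 15.0 to 72.8 in WT IR, 38.7 to 72.4 in Tet2-/- baseline libraries and 59.8, 138 and 279 in WT baseline replicates 1 to 3. Of 4 adipocyte markers tested between genotypes after IR 0 were called by edgeR. Of 3 tested from baseline to IR in kidneys labelled Tet2-/- 1 was called higher. For the interaction 4 of 8 were called higher, where 3.79% of all genes were. In Tet2-/- IR replicates 1 and 2 the sums were mostly Fabp4, at 106 and 78.9 FPKM.

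The libraries that were high in these chemokines were high in neutrophil markers and in part in macrophage markers, with differences in their order. The 3 Tet2-/- IR libraries held the 3 highest sums of Ccl2, Ccl6, Ccl7 and Ccl9 and of neutrophil markers, and replicate 2 the highest sum of the chemokines and of macrophage markers. Ccl2, Ccl6, Ccl7 and Ccl9 together came to 8.16 and 8.29 FPKM in Tet2-/- IR replicates 1 and 3. The macrophage sums there were 117 and 70.0 FPKM. Of these Cd14 alone held 50.9 and 31.9 FPKM, and it was at 4.89 to 15.1 FPKM in WT IR libraries. Tet2-/- baseline replicate 2, WT IR replicate 1 and WT baseline replicate 1 had macrophage sums above that of Tet2-/- IR replicate 3. These were 87.5, 81.6 and 73.2 FPKM, with 2.21, 2.49 and 2.22 FPKM of the 4 chemokines. The highest neutrophil sum, 134 FPKM, belonged to replicate 1 and not to replicate 2, which had 37.8 FPKM of the 4 chemokines. The part of these cells in the chemokine values was not tested.

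**Figure D4:**
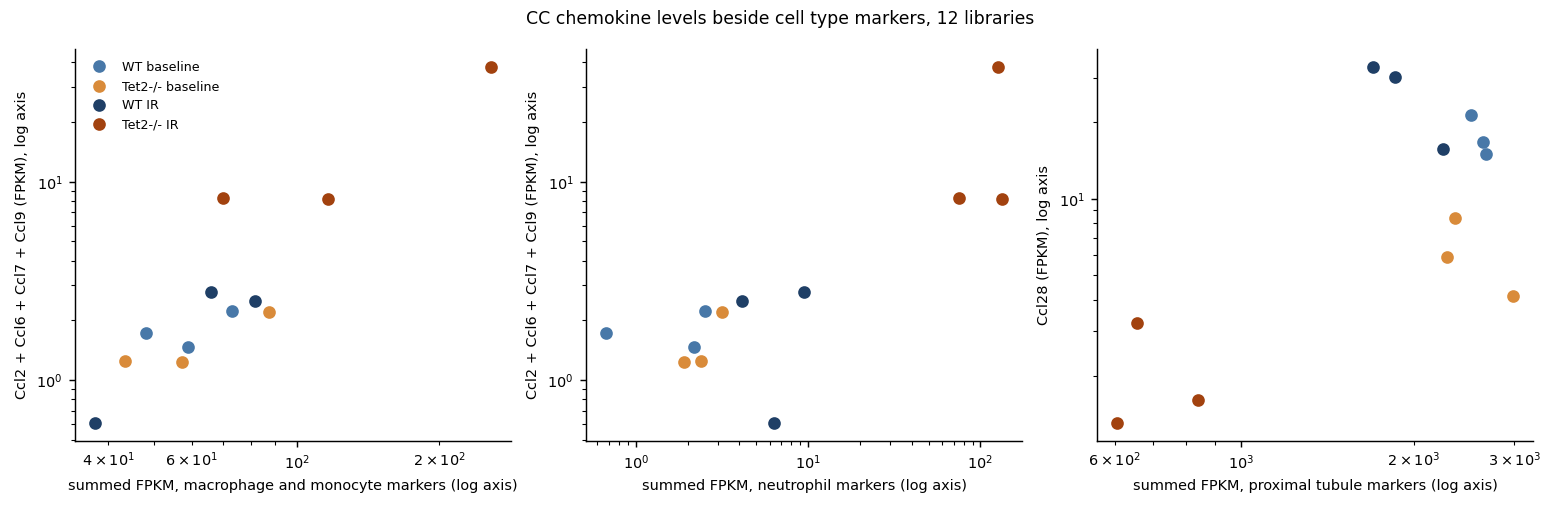
Left and middle, the summed FPKM of Ccl2, Ccl6, Ccl7 and Ccl9 against the summed FPKM of macrophage and monocyte or neutrophil markers in each of the 12 libraries. Right, Ccl28 FPKM against the summed FPKM of proximal tubule markers; all axes are logarithmic. The 3 Tet2-/- IR libraries stand apart in neutrophil (75.6 to 134) and proximal tubule markers (606 to 839), and overlap with other groups in macrophage markers at their lowest value, 70.0.

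The genes whose pattern over the 12 libraries was most like that of 3 leading members were sought among 12933 genes by Pearson's r of log2(FPKM + 0.1). Most like Ccl2 were F13a1, Msr1, Nde1, Ccl9 and Mmp3, with r from 0.970 to 0.953. F13a1 and Msr1, a coagulation factor subunit and a scavenger receptor, are expressed by macrophages. Most like Ccl6 were Slfn2, Bnip2, Ccl9 and Tlr13, with r from 0.989 to 0.964, so Ccl9 was on both lists. Most like Ccl28 were Ufsp2, Apobec2, Stt3b, Nlrc4 and Hmgn5, with r from 0.933 to 0.871. The libraries form groups that share genotype, injury and sequencing, so these values describe a shared order of groups and libraries.

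On the receiving side, Ccr1, the receptor of Ccl3, Ccl5, Ccl6 and Ccl9, rose after IR in both genotypes. Its FPKM was 0.164 to 0.202 in WT baseline and 0.203 to 0.349 in Tet2-/- baseline libraries, 2.02, 2.28 and 2.72 in WT IR replicates 1 to 3 and 7.79, 6.96 and 3.07 in Tet2-/- IR replicates 1 to 3. The 4 groups followed each other without overlap, at baseline only by 0.202 against 0.203 FPKM. The log2 fold change between genotypes at baseline, 0.73, did not pass (edgeR, adjusted p = 0.403). Over all genes, 3.06% lay above WT without overlap at baseline and 22.0% after IR. From baseline to IR 18.9% of genes in WT kidneys and 40.5% in those labelled Tet2-/- lay above without overlap. From baseline to IR Ccr1 rose by 3.62 in WT kidneys (SE 0.26; edgeR, adjusted p = 0.00567) and by 4.10 in those labelled Tet2-/- (SE 0.39; edgeR, adjusted p = 0.000332). Its log2 fold change between genotypes after IR, 1.22 ± 0.34, did not pass (edgeR, adjusted p = 0.0684), nor did the interaction of 0.51 (edgeR, adjusted p = 0.498). In WT kidneys its ligands Ccl5, Ccl6 and Ccl9 were tested and not called, and Ccl3 was removed by the filter.

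Apart from Ccr1, the receptors called had at most 79.5 counts in a compared library. In kidneys labelled Tet2-/- Ccr3, which binds Ccl5 and Ccl28, rose by 3.25 from baseline to IR (edgeR, adjusted p = 0.0180), from 0 to 6.0 counts at baseline to 18.0 to 31.5 after IR. Ackr2, a receptor that takes up inflammatory CC chemokines without signalling as the others do, rose by 1.85 (edgeR, adjusted p = 0.0298), from 0.0140 to 0.0660 FPKM at baseline to 0.126 to 0.218 FPKM after IR. Both genes were removed at a mean FPKM of at least 1, and both lost their calls under limma with a pseudocount of 1 and without Tet2-/- baseline replicate 1 or 3. Ccr3 also lost its call under limma with a pseudocount of 0.1, and Ackr2 without Tet2-/- IR replicate 2 or 3. Ccr6, the receptor of Ccl20, passed the filter on low counts between genotypes after IR through the WT libraries, in which it was high. It fell by 3.45 there (edgeR, adjusted p = 0.0432), on 11 to 19.5 counts in WT and 0 to 4.5 in Tet2-/- libraries. That call was lost under DESeq2, limma, a replicate block, summed transcripts and no filter on low counts, and when any 1 of the 6 libraries was left out. Ccr2, the receptor of Ccl2, Ccl7 and Ccl12, was at 1.37, 6.25 and 0.335 FPKM in Tet2-/- IR replicates 1 to 3 and at 0.218 to 0.733 in WT IR libraries, with a log2 fold change of 2.42 ± 0.95 (edgeR, adjusted p = 0.149). Ccr10, which binds Ccl28, stayed between 0.0280 and 0.401 FPKM and passed in no comparison.

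Of 15 receptor genes, 10 were tested between genotypes after IR with 0 higher and 1 lower, 9 in WT kidneys with 1 higher, 9 in kidneys labelled Tet2-/- with 3 higher, and 10 at baseline and 11 for the interaction with 0 called by edgeR, where 2 and 1 had an unadjusted p under 0.05. The background shares are those given for the members. In kidneys labelled Tet2-/- Ccr3 passed the filter on low counts through the IR libraries in which it was high. Between genotypes after IR Ccr6 passed it through the WT libraries. These counts therefore describe the receptors tested and are not shares of the list. Of 14 other CC ligand genes, 6 or 7 were tested in each comparison and edgeR called 0, while 0 to 2 had an unadjusted p under 0.05 and DESeq2 and edgeR with a replicate block each called 1, Ccl22, in kidneys labelled Tet2-/- after IR.

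The other CC ligands with a mean of 1 FPKM or more in some group were Ccl8, Ccl25 and Ccl27a. Ccl27a, a ligand of Ccr10, ran from 3.09 to 8.89 FPKM and Ccl25, a ligand of Ccr9, from 2.18 to 3.97 over the 12 libraries. The Ccl27a log2 fold change from baseline to IR in kidneys labelled Tet2-/- was −0.96 (edgeR, adjusted p = 0.0295), short of the fold threshold of 1. Ccl8, another monocyte-attracting gene of the Ccl2 cluster, was at 1.21, 1.63 and 1.19 FPKM in WT baseline replicates 1 to 3 and at 0.290, 0.662 and 0.189 in those labelled Tet2-/-. These groups did not overlap, as in 16.5% of all genes in that direction, and the log2 fold change of −1.69 ± 0.47 did not pass (edgeR, adjusted p = 0.269). Ackr4, a receptor that takes up Ccl19, Ccl21 and Ccl25, ran from 1.44 to 3.39 FPKM and passed in no comparison.

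**Figure D5:**
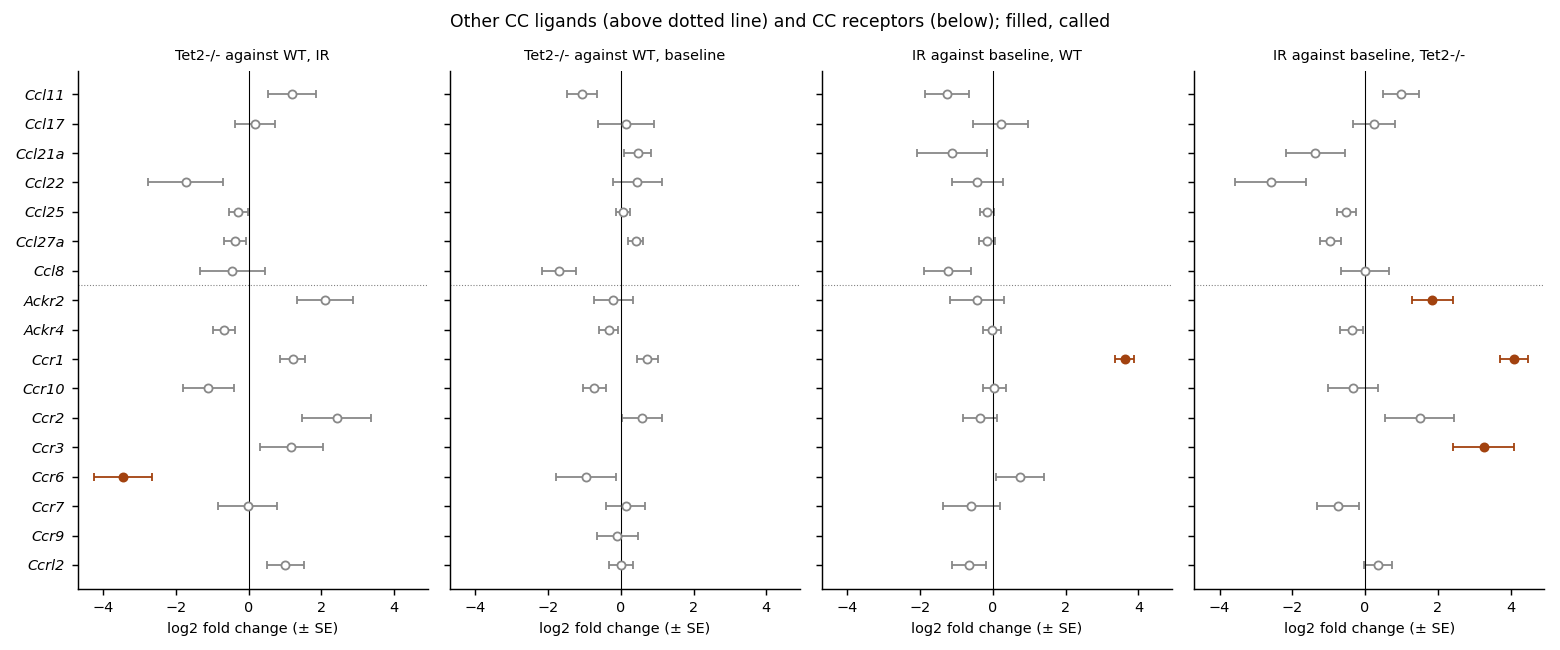
Fitted log2 fold changes with their SE of the tested CC ligands that are not members (above the dotted line) and of those tested CC receptors that are reported here (below) in the 4 pairwise comparisons (edgeR; filled points, called). Ccr1 is called after IR in WT (3.62) and in Tet2-/- kidneys (4.10), and none of the ligands is called.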

How the data were processed

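The authors aligned the RNA-seq reads with STAR (mm9) and used HOMER to count them over RefSeq transcripts, per the study's methods; versions are not given in the sources used here. The counts they deposited, raw read counts by the study's methods, rise in steps of 0.5 and 38.7% are not whole, so they were handled like expected counts and rounded before any count model. They also deposited FPKM of the same transcripts, used here for levels and for limma as an alternative. For 5569 symbols with several of the 34600 transcripts, the transcript with the highest total was kept. The members, marker lists and tests were chosen with earlier results of these data known.

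Each pairwise comparison used its 6 libraries in edgeR 4.0.16 (R 4.3.3): TMM scaling, the standard filter for low counts, and the quasi-likelihood F test, two-sided, with p-values adjusted over every gene tested by the Benjamini-Hochberg method. A call required a log2 fold change beyond 1 in either direction with an adjusted p under 0.05. The interaction used all 12 libraries and was called at an adjusted p under 0.05. Values after ± are SE for fold changes and SD for levels. The design assumed whole counts. DESeq2 1.42.0 and limma 3.58.1 (pseudocounts 1 and 0.1), other scaling, other filters, summed transcripts, a replicate block and leaving out each library were alternatives. The scripts were tested on simulated data. The text names all 10 members, those other CC ligands and receptors that were called or reached a mean FPKM of 1 (with Ccl22, Ccr10 and the remaining receptors of members added after their values were seen), and the 5 genes most like Ccl2, Ccl6 and Ccl28. A few items that these rules name, genes and 1 sequence, are not reported here.

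The study's methods and legends give 3 mice a genotype for the RNA-seq of each condition, as many as the libraries, and the labels name no animals, so p-values measure the spread between libraries. Replicate numbers are shared by the groups. Over all genes, same-numbered baseline and IR libraries deviated together. Their correlations were 0.381, 0.346 and 0.367 (WT), and 0.102, 0.338 and 0.260 (Tet2-/-). By these data, and not by the labels, the numbers may pair libraries in the effects of IR. The main fits, also those of IR and of the interaction, did not use such a pairing. It entered only in the alternative with a replicate block. The columns of the tables all matched a sample. Python 3.11.15 with matplotlib 3.10.9 was used for figures. Promoter sequences are RefSeq's on GRCm38.p6 and coding sequences GENCODE M1's on the build of the files.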

Additional observations from a re-analysis of the deposited data

Results flagged for a closer look

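The effect of IR differed between the genotypes by the interaction test for 3 of the 10 CC chemokines, where 9.18% of the 16741 genes tested were called. For Ccl28 the interaction was −2.35 on the log2 scale (SE 0.50; edgeR, adjusted p = 0.0187): the log2 fold change from baseline to IR was 0.52 in WT kidneys and −1.86 in those labelled Tet2-/-. All 3 Tet2-/- IR libraries lay below all 3 Tet2-/- baseline libraries. For Ccl6 it was 3.70 (SE 0.80; edgeR, adjusted p = 0.0194), from −0.56 in WT and 3.11 in Tet2-/- kidneys, and the call was lost without Tet2-/- baseline replicate 3 (edgeR, adjusted p = 0.0548). For Ccl9 it was 3.31 (SE 0.94; edgeR, adjusted p = 0.0499), from 0.47 and 3.75, and without Tet2-/- IR replicate 2 it was 2.20 (edgeR, adjusted p = 0.105). That call was lost in 14 of 21 alternatives. All 3 Tet2-/- IR libraries lay above all Tet2-/- baseline libraries for both genes.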

How the results depend on the processing

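Of 734 recomputed log2 fold changes, 671 kept their direction and side of the threshold, 23 lost a call, 9 gained one and 31 changed sign. None of those that changed sign had been called, and the causes were not tested. Of the 273 recomputed counts, 236 stayed within 1.5 times the reported one. Precision is limited by 3 libraries a group and, for Ccl3, Ccl4, Ccl7, Ccl12 and, at baseline, Ccl20, by low counts.

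Between genotypes after IR, the 2 members called became 4 under DESeq2, 4 with all 12 libraries in the fit and 1 to 2 with a library left out. They fell to 1 without WT IR replicate 1, 2 or 3 or Tet2-/- IR replicate 1. Over all genes, 373 were called higher and 623 lower in the main fit, 770 and 872 under DESeq2, and 714 and 879 with all 12 libraries. In the 4 fits with 1 member they were 65 and 229, 319 and 623, 87 and 293, and 106 and 287, in the order named. In place of 1 receptor, Ccr6, DESeq2 called 2, Ccr1 and Ccr2 but not Ccr6, and the fit to all 12 libraries called 2, Ccr1 and Ccr6. The count was 0 with no filter, 0 at a mean FPKM of at least 1, 0 under limma with either pseudocount, 0 with all transcripts summed, and 0 to 1 with a library left out. At baseline DESeq2 called 1 member, Ccl28, and edgeR 0. In WT kidneys after IR, 1 member, Ccl20, was called with all 12 libraries and 0 to 1 with a library left out, 1 being without WT IR replicate 1; with both WT baseline replicates 2 and 3 left out, an alternative chosen after seeing the data, 0 receptors were called in place of 1. That fit leaves 1 WT baseline library, assumed to vary like the WT IR libraries, and called only 1 gene of 16526 in all, so it says little about the receptor. In kidneys labelled Tet2-/- after IR, 1 of the other ligands was called with no fold threshold, 1 under DESeq2, 1 with all 12 libraries and 0 to 3 with a library left out (3 without Tet2-/- IR replicate 2, 2 without replicate 3, 1 without Tet2-/- baseline replicate 2). The 3 receptors there became 1 at a mean FPKM of at least 1, 1 under limma with a pseudocount of 1 and 1 to 3 with a library left out, 1 being without Tet2-/- baseline replicate 1 or 3. For the interaction, limma with a pseudocount of 0.1 called 1 receptor in place of 0, and the 3 members became 1 to 3, 1 being without Tet2-/- baseline replicate 3.

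Between genotypes, same-number correlations were 0.0130, 0.220 and 0.359 after IR and −0.152, −0.192 and 0.105 at baseline. The values after IR overlap those between baseline and IR in kidneys labelled Tet2-/-. Whether numbers pair libraries between genotypes after IR is therefore undecided. With a replicate block, 4 members and 0 receptors were called between genotypes after IR, where 477 of 16186 genes were called higher and 616 lower. The block called 1 other ligand in kidneys labelled Tet2-/- after IR, Ccl22, gave Ccl12 a log2 fold change of −0.84 after IR between genotypes, and changed no other count of members, ligands or receptors by over 1.5 times.

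Sign changes were seen for small values. Between genotypes after IR, Ccl12 was at −0.46 under limma with a pseudocount of 0.1 and ran from −3.01 to 1.17 with a library left out, and Ccl4 from −0.35 to 1.20. At baseline the ranges with a library left out were −0.27 to 0.46 for Ccl2, −0.14 to 1.06 for Ccl4, −0.054 to 0.53 for Ccl5, −0.37 to 0.079 for Ccl6 and −0.65 to 0.15 for Ccl9. In WT kidneys after IR they were −0.31 to 0.98 for Ccl4, −0.14 to 0.84 for Ccl7 and −0.15 to 1.27 for Ccl12, and with both WT baseline replicates left out Ccl7 was at −0.44 and Ccl9 at −0.11. In kidneys labelled Tet2-/- they were −0.13 to 1.05 for Ccl3 and −0.55 to 1.01 for Ccl4. For the interaction they were −0.38 to 1.61 for Ccl3, −1.08 to 0.54 for Ccl4, −0.080 to 0.65 for Ccl5 and −4.05 to 1.33 for Ccl12, and limma gave Ccl4 0.025 and 0.17 with pseudocounts of 1 and 0.1.

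Scaling by library sizes alone moved the median log2 fold change of all genes by 0.10 between genotypes after IR, 0.23 in kidneys labelled Tet2-/- after IR and 0.14 for the interaction, and no member's direction changed under it. The share of calls that were higher went from 52.3 to 67.2% in kidneys labelled Tet2-/- and from 41.3 to 61.7% for the interaction.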
